A study of Mus musculus with 36 samples.

Results

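Livers of normoxic mice collected at ZT0 (lights on) and at ZT12 (lights off) were compared, 3 mice at each time, 6 of the 36 libraries of the series. All were male wild-type C57BL/6JRj mice of 16 weeks on standard chow ad libitum, housed 5 per cage under 12 h of light and 12 h of darkness. They had spent 4 weeks in normoxia (control), in cages that received cycles of air timed like those of intermittent hypoxia (IH). The same 2 times in mice that had spent 4 weeks under IH, applied each day from ZT0 to ZT8, gave another 6 libraries from other animals, used here for comparison. Each library came from polyadenylated liver RNA, and each gene symbol has 1 value per library in FPKM, a number of fragments scaled to transcript length and to the fragments mapped in the library. The deposited values hold no read counts, so the depth behind a value is unknown. Of 24346 symbols, 24066 were listed on 1 row, and 13215 of these averaged at least 0.1 FPKM over the 36 libraries and were tested. Values were compared as log2(FPKM + 1), a scale that understates the change of weakly expressed genes. A gene was called when its adjusted p in limma was below 0.05, and changes below are given as ZT12 minus ZT0 with the standard error. ZT0 and ZT12 differ in clock time, light and recent feeding at once, and these cannot be told apart in mice that were fed freely under a light-dark cycle.

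Most mouse cells hold a circadian clock in which the CLOCK and BMAL1 proteins switch on genes with an E-box, among them those of their own PER and CRY repressors and of the nuclear receptors REV-ERBα and REV-ERBβ. The REV-ERBs in turn repress the BMAL1 gene at ROR elements, while DBP, TEF and HLF act at D-boxes, where NFIL3 opposes them. In liver this clock, together with feeding, glucocorticoids and body temperature, times sterol, glycogen, bile acid and drug metabolism over the day. Mice eat mostly in darkness, so ZT0 follows the feeding period and ZT12 follows the daily rest.

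One of the 6 libraries stood apart. In ZT12 replicate 2 the FPKM summed to 808274, against 567374 to 605642 in the other 5 libraries of the comparison and 561964 to 626371 in the other 35 of the series. On the log2 scale it correlated across genes with the other ZT12 libraries at r = 0.950 and 0.949, whereas those correlated with each other at 0.993 and the ZT0 libraries at 0.989 to 0.991. Transcripts of acute-phase proteins were very abundant in it, with Saa1, which encodes serum amyloid A1, at 49.8, 382 and 1235 FPKM at ZT0 and at 38.7, 20546 and 31.2 FPKM at ZT12. The median SD of a gene over the 3 ZT12 libraries was 0.248 on the log2 scale, 0.0845 over the 2 without replicate 2, and 0.102 over the 3 at ZT0. At equal spread the median SD of 2 values is below that of 3, so 0.0845 and 0.102 are not directly comparable. Counts of called genes are given with all 6 libraries and, where they differ, without ZT12 replicate 2. In bulk liver, fewer cells of a type and less RNA per cell cannot be told apart.

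More genes were low than high at ZT12. Of the 13215 genes tested, 47 rose (0.356%) and 180 fell (1.36%), 227 in all, with log2 differences from 0.36 to 4.29 among the former and from -4.90 to -0.37 among the latter. At least a doubling on the FPKM + 1 scale was seen in 35 of the 47 and at least a halving in 106 of the 180. Without ZT12 replicate 2 the counts were 486 genes higher (3.68%) and 729 lower (5.52%), and the 227 were all among those 1215. The scaling between libraries moved the split: quantile normalization gave 93 higher and 180 lower, the median of ratios 88 higher and 159 lower, and rescaling to a common sum of FPKM 19 higher and 144 lower. Counting genes whose 3 ZT12 values lay entirely to one side of the 3 ZT0 values, 1130 (8.55%) were above and 2930 (22.2%) below. All 227 called genes were among them, so groups without overlap are no added support for a call. The median difference over all tested genes was -0.09, and -0.02 without ZT12 replicate 2. The common sum moved that median to -0.19, and changes under that scaling are relative to it. With 3 mice against 3, an exact permutation test of 1 gene cannot give a two-sided p below 0.1, so single genes rest on the model across all genes.

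**Figure D1:**
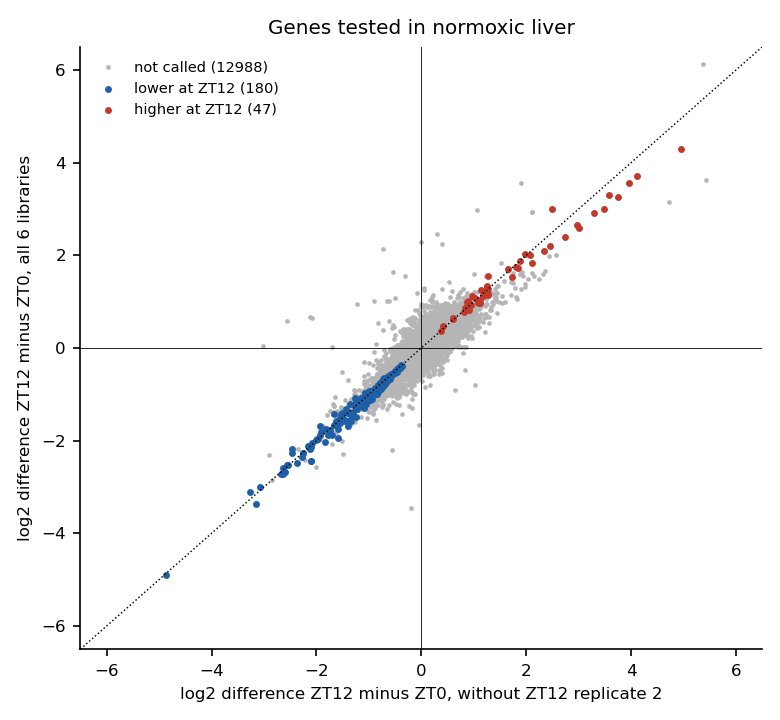
Each point is 1 of the 13215 tested genes, with the log2(FPKM + 1) difference between ZT12 and ZT0 from the 5 libraries without ZT12 replicate 2 on the x axis and from all 6 on the y axis. The 47 genes called higher (red) and the 180 called lower (blue) keep their sign on both axes, as groups without overlap must. The dotted line marks equal differences.

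Activator genes of the core clock were low at ZT12, and several of its repressor genes were high. Of the 17 core clock genes tested, 3 fell at ZT12 (Arntl, Clock and Npas2) and 3 rose (Per3, Nr1d1 and Nr1d2), and without ZT12 replicate 2 the counts were 4 and 5. Over all tested genes 1.36% fell and 0.356% rose with 6 libraries, and 5.52% and 3.68% did without replicate 2. Arntl (chr7:113207465-113314126, plus strand), which encodes BMAL1, stood at 12.3, 9.71 and 10.2 FPKM at ZT0 and 0.164, 0.568 and 0.671 FPKM at ZT12. The groups were far apart, with a fall of 3.01 ± 0.19 on the log2 scale, 8.05-fold on the FPKM + 1 scale (adjusted p = 0.0031). Npas2, a close relative of Clock that also partners BMAL1, had 4.26, 3.05 and 4.33 FPKM at ZT0 and 0.00658, 0.00647 and 0.0136 FPKM at ZT12, a difference of -2.26 ± 0.14 (adjusted p = 0.0031). Its ZT12 libraries were therefore close to 0. Clock itself went from 3.82, 3.96 and 3.65 FPKM to 1.00, 1.02 and 1.52 FPKM, a difference of -1.15 ± 0.15 (adjusted p = 0.02).

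The REV-ERB genes and Per3 were scarce at ZT0. Nr1d1, which encodes REV-ERBα, had 1.64, 0.787 and 1.88 FPKM at ZT0 and 14.4, 6.83 and 9.99 FPKM at ZT12, a rise of 2.20 ± 0.30 (adjusted p = 0.024). Nr1d2, which encodes REV-ERBβ, had 1.40, 1.09 and 1.46 FPKM at ZT0 and 16.4, 6.59 and 12.6 FPKM at ZT12, a rise of 2.40 ± 0.31 (adjusted p = 0.02). Per3 stood at 0.271, 0.344 and 0.154 FPKM at ZT0 and 6.87, 2.82 and 4.08 FPKM at ZT12, a rise of 2.09 ± 0.26 (adjusted p = 0.019). In all of these the 3 values at ZT12 exceeded the 3 at ZT0, as for every called gene that rose, and replicate 2 was the lowest at ZT12. Per1 and Per2 did not pass with 6 libraries, at 2.09 ± 0.41 (adjusted p = 0.064) and 1.10 ± 0.34 (adjusted p = 0.17), but did without ZT12 replicate 2, at 2.35 (adjusted p = 0.032) and 1.43 (adjusted p = 0.029). Per2 was 2.73, 4.21 and 1.97 FPKM at ZT0 and 8.51, 4.24 and 10.4 FPKM at ZT12, so that the highest ZT0 value nearly met the lowest at ZT12. Of the cryptochromes, which repress together with the PER proteins, Cry1 had a difference of -0.65 ± 0.22 (adjusted p = 0.19) and Cry2 one of 0.63 ± 0.26 (adjusted p = 0.27). Neither passed with or without replicate 2.

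The activator Rora, whose product competes with the REV-ERBs, had a difference of -0.19 ± 0.21 (adjusted p = 0.63). The genes of proteins that tag or modify PER and CRY had differences of -0.62 for Fbxl21, -0.34 for Csnk1d, -0.28 for Csnk1e and -0.21 for Btrc. Among these Fbxl21 passed without ZT12 replicate 2 (-0.62, adjusted p = 0.035). Over the 17 core clock genes the median difference was -0.19, against -0.09 over all tested genes, with members on both sides of 0.

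Clock output genes were mostly high at ZT12. Of the 15 tested, 6 rose (Dbp, Tef, Ciart, Usp2, Tspan4 and Por) and none fell, with a median difference of 1.40. Without ZT12 replicate 2, 9 rose and 2 fell, and the median was 1.74. Over all tested genes 0.356% rose and 1.36% fell with 6 libraries, and 3.68% and 5.52% did without replicate 2. Dbp (chr7:45705088-45710203, plus strand), an activator at D-boxes, had the largest rise of all called genes, 4.29 ± 0.57 (adjusted p = 0.023), with 0.537, 0.289 and 0.215 FPKM at ZT0 and 58.0, 9.56 and 28.1 FPKM at ZT12. The 3 ZT12 values of Dbp were spread over a wide range, with replicate 2 the lowest, and yet lay well above ZT0. Tef, of the same factor family, had 5.92, 5.65 and 3.68 FPKM at ZT0 and 54.1, 23.1 and 39.6 FPKM at ZT12 (2.66 ± 0.32, adjusted p = 0.018). Hlf, the third member, went from 7.79, 6.33 and 5.46 FPKM to 10.6, 4.51 and 10.0 FPKM, and its groups overlapped because of replicate 2 (0.25 ± 0.31, adjusted p = 0.68). Nfil3, which represses at D-boxes, had 26.2, 22.9 and 29.5 FPKM at ZT0 and 6.66, 13.6 and 9.28 FPKM at ZT12, a difference of -1.37 ± 0.25 (adjusted p = 0.055), and passed without replicate 2 (-1.61, adjusted p = 0.01).

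Ciart, a repressor of CLOCK and BMAL1, was at 0.123, 0.402 and 0.132 FPKM at ZT0 and 19.7, 7.28 and 16.5 FPKM at ZT12, a rise of 3.57 ± 0.35 (adjusted p = 0.0096). Usp2, which encodes a deubiquitinase, was at 1.52, 2.09 and 0.889 FPKM at ZT0 and 31.4, 9.01 and 22.2 FPKM at ZT12 (3.00 ± 0.44, adjusted p = 0.028). Both were low in each ZT0 library. Tspan4, a tetraspanin gene, differed less but with little spread, at 19.3, 19.7 and 22.7 FPKM at ZT0 and 49.5, 57.1 and 51.1 FPKM at ZT12 (1.31 ± 0.14, adjusted p = 0.011). Por, whose product passes electrons to every microsomal cytochrome P450, stood at 81.3, 47.6 and 76.3 FPKM at ZT0 and 304, 241 and 267 FPKM at ZT12 (2.00 ± 0.23, adjusted p = 0.015). Its lowest ZT12 value exceeded its highest ZT0 value by a wide margin. Wee1, a kinase gene of the G2/M boundary, Nampt, of NAD salvage, and Tfrc, the transferrin receptor gene, passed without ZT12 replicate 2 but not with it, at 2.11, 1.74 and 0.97. Cdkn1a, which encodes the cell cycle inhibitor p21, stood at 11.0, 9.48 and 13.1 FPKM at ZT0 and 0.403, 4.61 and 0.853 FPKM at ZT12. Replicate 2 was the highest of its ZT12 values, and the difference was -2.31 ± 0.50 (adjusted p = 0.076) with it and -2.91 (adjusted p = 0.0028) without it. Alas1, Bhlhe40 and Bhlhe41 did not pass with 6 or 5 libraries.

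**Figure D2:**
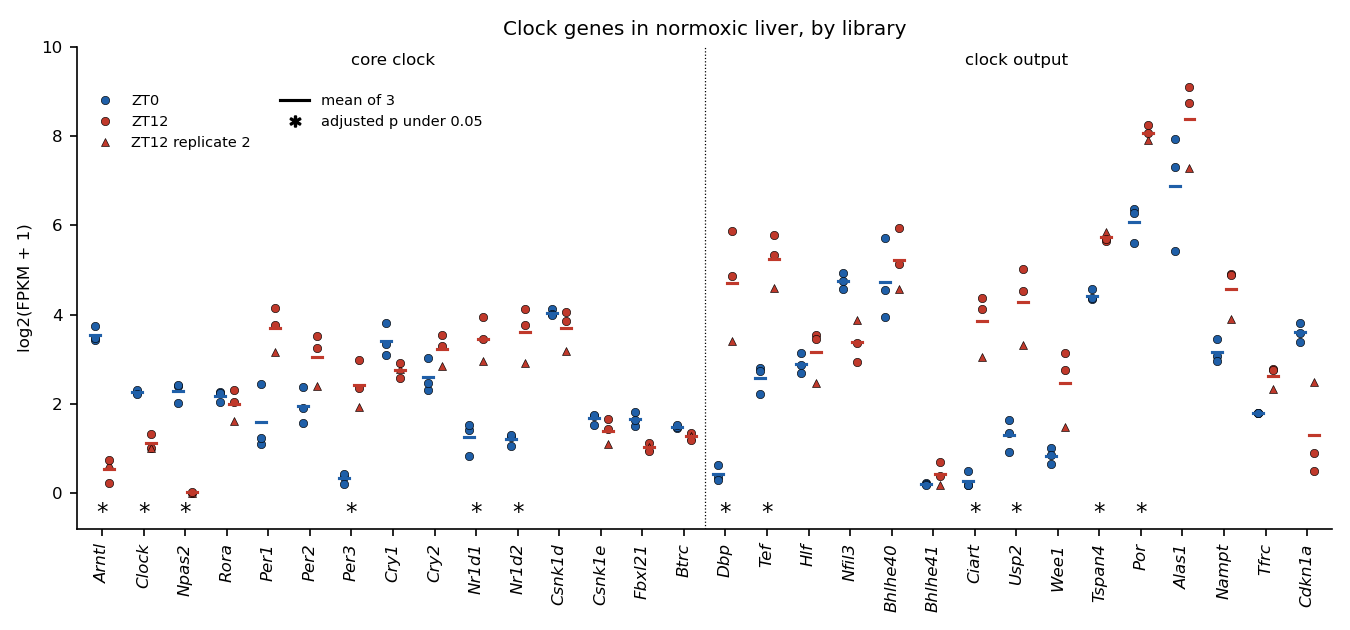
Values of 15 core clock and 15 clock output genes, in log2(FPKM + 1), for the 3 ZT0 libraries (blue) and the 3 ZT12 libraries (red), with ZT12 replicate 2 as a triangle, bars at the means, and asterisks at the 12 genes called. Arntl, Clock and Npas2 lie lower at ZT12, whereas Dbp, Tef, Ciart and Usp2 lie higher in each of the 3 ZT12 libraries.

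Promoters of these clock genes were read from RefSeq (GRCm38.p6) to show which of them carry the elements named above in the 250 bases before a start site. The motifs searched on both strands were the E-box CACGTG, the D-box TTANGTAA and the ROR element TAGGTCA. Promoters were found for 25 of the 32 genes, and Per2, Csnk1d, Btrc, Bhlhe40 and Wee1 were among those without one. Among the 9 with a promoter that rose, 3 held an E-box (Tef, Ciart and Tspan4) and 1 a D-box (Per3). Of the 3 that fell none held any of these motifs in this window, and of the 13 others 3 held an E-box and 1 a ROR element. Of all 32851 promoters of this length, 6.02% held the E-box, 2.06% the D-box and 2.23% the ROR element. These shares are per promoter, whereas a gene was counted if any of its start sites held the motif. The 25 genes had 37 start sites. Windows of 3 genes that rose are shown because of these matches, Ciart with 3 E-boxes (chr3:95882240-95882371, minus strand), Per3 with 2 D-boxes (chr4:151044789-151044897, minus strand) and Tef with 1 E-box before its first start site (chr15:81802519-81802578, plus strand). Capitals mark the motif, and each window runs in the direction of transcription.
Ciart: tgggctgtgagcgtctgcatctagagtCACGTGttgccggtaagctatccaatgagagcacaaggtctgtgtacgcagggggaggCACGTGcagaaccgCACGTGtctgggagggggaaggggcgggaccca
Per3: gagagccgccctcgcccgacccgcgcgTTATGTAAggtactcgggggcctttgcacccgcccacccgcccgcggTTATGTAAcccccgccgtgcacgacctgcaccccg
Tef: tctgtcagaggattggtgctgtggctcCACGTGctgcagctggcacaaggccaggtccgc
A match describes the sequence and does not show that a factor binds there. Only the exact forms above were searched, and only before a start site. A gene without a match may therefore hold an element elsewhere or in another form.

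Outside the clock lists, the fall with the smallest P was that of Elovl3 (chr19:46131897-46135694, plus strand), which encodes an elongase of very long chain fatty acids. It stood at 457, 314 and 369 FPKM at ZT0 and 10.7, 11.3 and 13.0 FPKM at ZT12, a difference of -4.90 ± 0.18 (adjusted p = 3.9e-04), or 29.8-fold on the FPKM + 1 scale. All 3 ZT12 mice had values within a narrow range. The next were Pitx3, a homeobox gene (4.63, 3.66 and 3.43 FPKM, then 0.0330, 0.0108 and 0.0228 FPKM), and Spon2, which encodes a secreted spondin (10.5, 7.76 and 8.31 FPKM, then 0.717, 0.773 and 0.637 FPKM). Pitx3 (chr19:46135685-46148326, minus strand) overlaps the end of the far more abundant Elovl3 on the other strand. Whether reads of Elovl3 entered the Pitx3 values was not tested. Adck3, whose product acts in coenzyme Q synthesis, fell from 119.9, 102 and 113 FPKM to 26.5, 27.7 and 27.5 FPKM (-2.00 ± 0.13, adjusted p = 0.0031). The spread within each group was small against this change. Ppard, which encodes the nuclear receptor PPARδ, fell by 2.49, and Clpx, of the mitochondrial ClpXP protease, by 2.73 on the log2 scale (adjusted p = 0.0035 and 0.0035). For Ppard the levels were 20.0, 23.2 and 18.6 FPKM at ZT0 and 3.53, 2.22 and 2.87 FPKM at ZT12.

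Hist1h1c, a linker histone gene, was at 63.2, 53.5 and 50.7 FPKM at ZT0 and 12.1, 10.3 and 12.0 FPKM at ZT12 (-2.19 ± 0.15, adjusted p = 0.0035). The tubulin genes Tubb2a and Tubb2b fell together, Tubb2a from 107, 108 and 116 FPKM to 7.48, 15.3 and 14.7 FPKM (-3.10 ± 0.26, adjusted p = 0.0051) and Tubb2b by 2.58. These paralogs are nearly identical in sequence, so their reads could have been split or shared between them. Aqp8, a water channel gene of the hepatocyte, was at 97.3, 101 and 134 FPKM at ZT0 and 21.5, 14.8 and 13.9 FPKM at ZT12 (-2.67 ± 0.21, adjusted p = 0.0039). Cldn1, a tight junction gene, was at 39.9, 30.9 and 32.0 FPKM at ZT0 and 4.00, 5.56 and 6.02 FPKM at ZT12 (-2.52 ± 0.19, adjusted p = 0.0035). For each of these genes, as for every called gene that fell, the lowest ZT0 value was more than the highest ZT12 value.

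Among genes that rose, Nrg4 (chr9:55220222-55326844, minus strand), which encodes the ErbB4 ligand neuregulin 4, had the smallest P. It was at 1.17, 1.21 and 1.08 FPKM at ZT0 and 8.48, 8.27 and 6.66 FPKM at ZT12, a rise of 2.02 ± 0.15 (adjusted p = 0.0035). Replicate 2 did not stand apart for it. Rgs16, a regulator of G protein signalling, was at 1.10, 0.336 and 0.281 FPKM at ZT0 and 21.6, 10.6 and 29.9 FPKM at ZT12 (3.72 ± 0.39, adjusted p = 0.011). Upp2, a uridine phosphorylase gene, was at 32.0, 27.1 and 22.9 FPKM at ZT0 and 321, 121 and 236 FPKM at ZT12 (2.91 ± 0.35, adjusted p = 0.018). In both, ZT12 replicate 2 was the lowest ZT12 value and still far above ZT0. Slc2a4, which encodes the glucose transporter GLUT4, is weakly expressed in liver and rose from 0.0846, 0.0211 and 0 FPKM to 0.458, 0.661 and 0.692 FPKM (0.63 ± 0.08, adjusted p = 0.018). Serpina6, which encodes corticosteroid-binding globulin, was at 80.8, 72.8 and 94.7 FPKM at ZT0 and 359, 238 and 246 FPKM at ZT12 (1.73 ± 0.21, adjusted p = 0.017).

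The levels at the other 4 times of day in the same normoxic series place ZT0 and ZT12 within the daily course. Of the 47 genes higher at ZT12, the mean was highest at ZT12 in 38, at ZT8 in 8 and at ZT16 in 1. Of the 180 genes lower at ZT12, it was highest at ZT0 in 133, at ZT20 in 23 and at ZT4 in 22. Nr1d1 and Dbp were among those already past their highest mean at ZT12. Nr1d1 averaged 58.8 ± 6.43 FPKM (SD, n = 3) at ZT8 and 10.4 ± 3.82 FPKM at ZT12, and Dbp 70.8 ± 7.77 FPKM and 31.9 ± 24.5 FPKM. Elovl3 in contrast declined from 379.8 ± 72.2 FPKM at ZT0 through 158 ± 62.5 at ZT4 and 38.2 ± 13.2 at ZT8 to 11.7 ± 1.18 at ZT12, and was back at 307 ± 39.3 FPKM at ZT20. The same 2 times were used to call the genes, so their place in this course is a description.

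**Figure D3:**
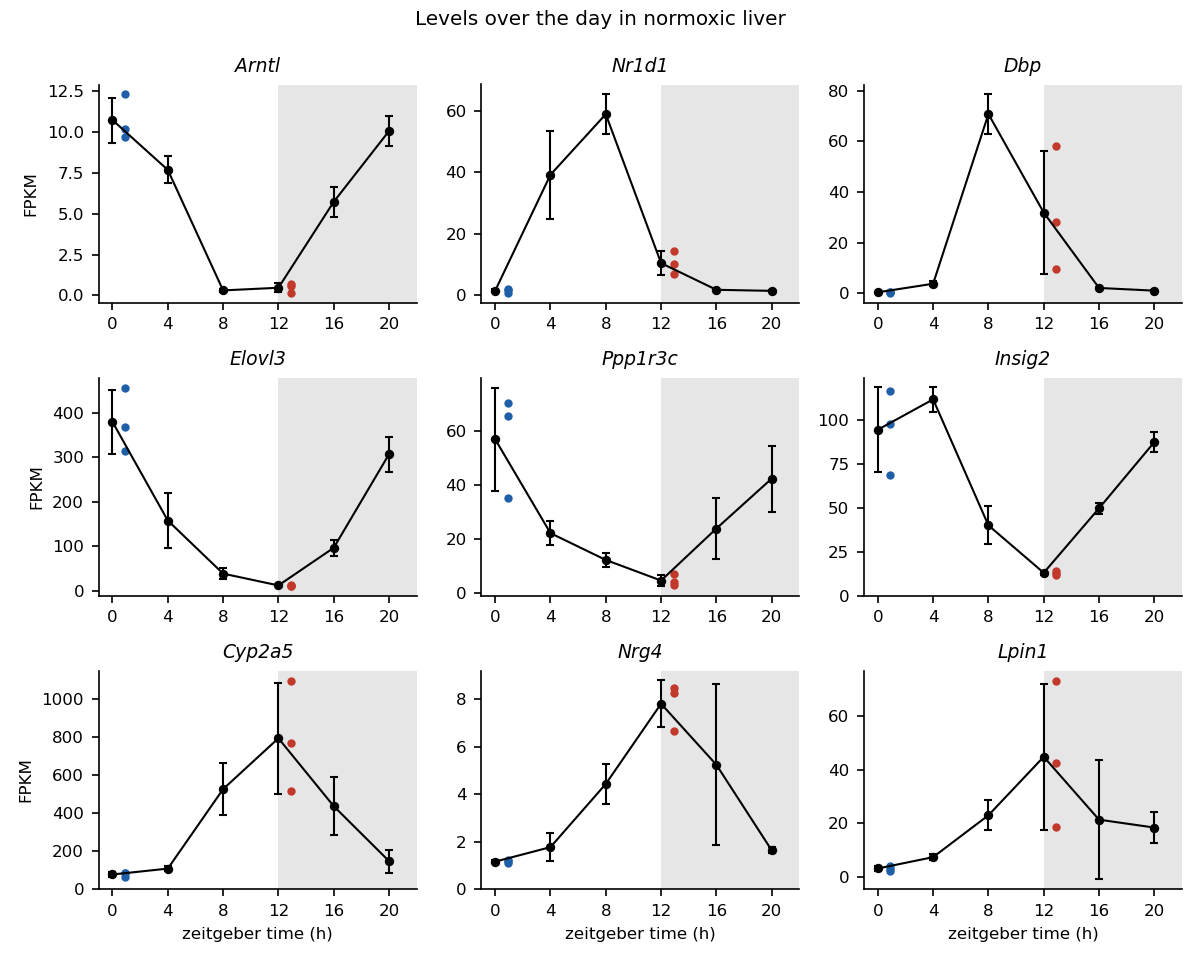
Mean level in FPKM over zeitgeber time in normoxic liver for 9 of the named genes, with bars for the SD of 3 mice, grey for darkness, and the single ZT0 (blue) and ZT12 (red) libraries drawn beside their means. Elovl3 is lowest at ZT12, at 11.7 FPKM, whereas Nr1d1 and Dbp are highest at ZT8 and lower again by ZT12.

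Sterol synthesis genes leaned towards ZT0. Of 27 tested, 3 fell (Insig2, Hmgcs1 and Dhcr7) and none rose, with a median difference of -0.50. Without ZT12 replicate 2, 9 fell and 2 rose, at a median of -0.54, and under each scaling tried the median was below 0. For this list and those below, the counts are to be read against the shares over all tested genes. With 6 libraries 0.356% rose and 1.36% fell, and 3.68% and 5.52% did without replicate 2. Hmgcs1, which makes HMG-CoA, was at 116, 72.7 and 138 FPKM at ZT0 and 24.2, 27.4 and 27.4 FPKM at ZT12 (-1.96 ± 0.24, adjusted p = 0.019). Dhcr7, of the last step to cholesterol, was at 47.3, 42.7 and 52.8 FPKM at ZT0 and 20.2, 22.8 and 23.7 FPKM at ZT12 (-1.06 ± 0.14, adjusted p = 0.023). Insig2 makes no sterol but holds the SREBP factors in the endoplasmic reticulum, and it moved most, from 117, 69.0 and 98.2 FPKM to 13.1, 12.1 and 14.2 FPKM (-2.73 ± 0.21, adjusted p = 0.0035). For each of the 3 the groups were apart, as for every called gene, and replicate 2 was close to the other ZT12 values. Mvd, of the mevalonate pathway, chosen after its values were seen, passed without replicate 2 (-1.67, adjusted p = 0.012).

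Of 22 fatty acid synthesis genes tested, 2 rose (Thrsp and Lpin1) and none fell, and the median was above 0 under each scaling tried. In IH 2 rose and 3 fell, at a median of -0.03. Lpin1, whose product makes diacylglycerol from phosphatidate, was at 3.17, 2.42 and 4.15 FPKM at ZT0 and 42.5, 18.8 and 73.1 FPKM at ZT12 (3.26 ± 0.46, adjusted p = 0.026). Thrsp, which encodes the lipogenic protein Spot 14, was at 84.8, 174 and 121 FPKM at ZT0 and 533, 1984 and 885 FPKM at ZT12 (3.00 ± 0.50, adjusted p = 0.041). Replicate 2 was the lowest of the ZT12 values for Lpin1 and the highest for Thrsp. Without it 8 rose and 2 fell, and the median was 0.39 in place of 0.30. Chosen after their values were seen, Acaca, the acetyl-CoA carboxylase gene, was at 5.92, 8.34 and 7.86 FPKM at ZT0 and 12.6, 12.0 and 14.9 FPKM at ZT12 and Elovl6, an elongase gene, at 8.34, 8.55 and 11.7 FPKM at ZT0 and 17.8, 15.8 and 25.9 FPKM at ZT12. These passed without replicate 2 (adjusted p = 0.037 and 0.034), whereas Elovl5, another elongase, was lower at ZT12 (-1.16, adjusted p = 0.0057).

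Of 43 genes of fatty acid oxidation and ketogenesis, 3 fell (Crot, Pdk4 and Plin2) and none rose. The counts were the same without ZT12 replicate 2, where 5.52% of all tested genes fell and 3.68% rose. Crot, a peroxisomal carnitine acyltransferase gene, was at 313, 199 and 294 FPKM at ZT0 and 56.6, 29.1 and 65.3 FPKM at ZT12 (-2.44 ± 0.33, adjusted p = 0.024). Plin2 coats lipid droplets rather than oxidizing fat and was at 348, 212 and 263 FPKM at ZT0 and 67.5, 87.3 and 73.9 FPKM at ZT12 (-1.81 ± 0.22, adjusted p = 0.017). Pdk4 inhibits pyruvate dehydrogenase and was at 4.40, 2.47 and 3.71 FPKM at ZT0 and 0.514, 0.265 and 0.425 FPKM at ZT12 (-1.67 ± 0.19, adjusted p = 0.014). The median of the list was -0.07 with 6 libraries and 0.18 without replicate 2, so the list as a whole showed no stable direction. Pdk4 stood in a second list as well, the TCA cycle with the pyruvate dehydrogenase step, where no other of the 29 members passed with 6 libraries. Without replicate 2, 4 of the 29 rose and 1 fell, and the median moved from 0.07 to 0.20. The most abundant members of that list, Mdh1 and Sdhb, had differences of 0.07 and 0.45 that did not pass.

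Glycogen and glucose genes changed in both directions. Of 38 tested, 2 rose (Slc37a4 and Igfbp2) and 2 fell (Ppp1r3c and Irs2). Ppp1r3c, which brings protein phosphatase 1 to glycogen, had the second largest fall of the called genes. Its levels were 70.4, 65.7 and 35.1 FPKM at ZT0 and 3.91, 3.06 and 6.87 FPKM at ZT12 (-3.37 ± 0.34, adjusted p = 0.011). Irs2, the insulin receptor substrate, was at 1.82, 1.48 and 1.99 FPKM at ZT0 and 0.532, 0.159 and 0.484 FPKM at ZT12 (-0.99 ± 0.14, adjusted p = 0.026). Slc37a4, the transporter that admits glucose 6-phosphate to the endoplasmic reticulum, was at 37.6, 52.9 and 35.5 FPKM at ZT0 and 94.3, 85.2 and 95.1 FPKM at ZT12 (1.13 ± 0.18, adjusted p = 0.039). Igfbp2, which encodes a binding protein for insulin-like growth factors, was at 319.6, 283 and 303 FPKM at ZT0 and 654, 505 and 625 FPKM at ZT12 (0.97 ± 0.17, adjusted p = 0.046). With ZT12 replicate 2 left out, 9 rose and 2 fell. Gys2, the liver glycogen synthase gene, named after its values were seen, was at 38.9, 34.1 and 32.7 FPKM at ZT0 and 149.9, 62.0 and 127 FPKM at ZT12. Its difference was 1.94 (adjusted p = 0.0028) without replicate 2 and 1.56 ± 0.32 (adjusted p = 0.07) with it.

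Of 23 genes of bile acid synthesis and transport, 3 fell (Hsd3b7, Abcb11 and Acox2) and none rose. Hsd3b7, an early enzyme of the pathway, was at 327, 291 and 350.3 FPKM at ZT0 and 96.5, 67.3 and 101 FPKM at ZT12 (-1.88 ± 0.20, adjusted p = 0.011). Acox2, which shortens the side chain, was at 85.3, 72.0 and 80.6 FPKM at ZT0 and 35.4, 35.2 and 42.6 FPKM at ZT12 (-1.05 ± 0.14, adjusted p = 0.024). Abcb11, the bile salt export pump gene, was at 94.8, 112 and 115 FPKM at ZT0 and 44.4, 32.9 and 39.1 FPKM at ZT12 (-1.45 ± 0.16, adjusted p = 0.014). ZT0 and ZT12 did not overlap for any of the 3, as for every called gene. When ZT12 replicate 2 was left out, 4 fell and 6 rose. The latter included the sterol transporter gene Abcg5, named after its values were seen (15.1, 13.9 and 20.0 FPKM, then 53.8, 33.2 and 36.8 FPKM, 1.41, adjusted p = 0.022). The median of the list moved from -0.19 to 0.04.

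Of 45 drug metabolism genes, 3 rose (Cyp2a5, Cyp2a4 and Por) and none fell, and 7 rose and none fell without ZT12 replicate 2. Cyp2a5, which hydroxylates coumarin, was at 63.7, 84.5 and 81.8 FPKM at ZT0 and 1094, 513 and 768 FPKM at ZT12 (3.29 ± 0.29, adjusted p = 0.0064), or 9.81-fold on the FPKM + 1 scale. Cyp2a4, a steroid hydroxylase gene, was at 2.38, 3.21 and 3.30 FPKM at ZT0 and 38.6, 12.5 and 24.6 FPKM at ZT12 (2.60 ± 0.38, adjusted p = 0.028). The coding sequences of both are nearly identical, so the split of reads between them is uncertain. Amino acid and one-carbon metabolism had 2 of 39 genes lower and none higher with 6 libraries, and 4 lower and 2 higher without replicate 2. Bhmt, which remethylates homocysteine, was at 2362, 1352 and 1594 FPKM at ZT0 and 415, 408 and 642 FPKM at ZT12 (-1.85 ± 0.29, adjusted p = 0.035). Cbs, which turns homocysteine into cystathionine, was at 225, 179 and 229 FPKM at ZT0 and 101, 99.8 and 86.6 FPKM at ZT12 (-1.13 ± 0.16, adjusted p = 0.026). Both genes were apart in the 6 libraries, as was every called gene. Of 18 genes of NAD metabolism none passed with 6 libraries (2 higher and 3 lower at an unadjusted P below 0.05), and without replicate 2, 2 rose and 1 fell. Of all tested genes 4.89% were higher and 13.4% lower at that unadjusted P.

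Of 22 glucocorticoid target genes, 1 rose and none fell. This was Fkbp5, a co-chaperone of the glucocorticoid receptor, at 5.80, 3.99 and 3.34 FPKM at ZT0 and 16.0, 15.6 and 19.0 FPKM at ZT12 (1.76 ± 0.20, adjusted p = 0.015). Pck1, of gluconeogenesis, was at 273, 303 and 449 FPKM at ZT0 and 819.8, 667 and 778 FPKM at ZT12 and did not pass (1.17 ± 0.23, adjusted p = 0.063). Tat, the tyrosine aminotransferase gene, was at 452, 749 and 677 FPKM at ZT0 and 481, 645 and 549 FPKM at ZT12, with overlapping groups (-0.14 ± 0.24, adjusted p = 0.76). Without ZT12 replicate 2, 5 rose and 1 fell, Pck1 among the former (1.25, adjusted p = 0.032). Rbm3, which encodes a cold-inducible RNA-binding protein, was the 1 of 22 genes of the heat shock and cold response that rose. None of them fell with 6 libraries and 1 did without replicate 2. It was at 6.76, 9.87 and 11.9 FPKM at ZT0 and 40.2, 37.0 and 34.2 FPKM at ZT12 (1.89 ± 0.21, adjusted p = 0.014), with the groups well apart. The abundant heat shock genes Hspa8 and Hsp90ab1 had differences of 0.08 ± 0.30 (adjusted p = 0.90) and -0.33 ± 0.17 (adjusted p = 0.36).

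None of 28 genes of the unfolded protein response passed with 6 libraries, and at an unadjusted P below 0.05, 1 was higher and 6 were lower, against the 4.89% and 13.4% of all tested genes. The abundant chaperone genes Calr and Hspa5 had differences of -0.57 ± 0.22 (adjusted p = 0.24) and -0.65 ± 0.34 (adjusted p = 0.35), and without ZT12 replicate 2 Calr was 1 of 2 that fell (-0.75, adjusted p = 0.041). None of 18 immediate early genes passed with or without it, and 0 had an unadjusted P below 0.05 with 6 libraries. Zfp36 and Jund, the most abundant of them, overlapped between ZT0 and ZT12. Of 21 cell cycle genes 2 rose and none fell, and without replicate 2, 3 rose and 2 fell. Ccne1, which encodes cyclin E1, was at 0.118, 0.291 and 0.231 FPKM at ZT0 and 2.44, 1.25 and 1.46 FPKM at ZT12 (1.14 ± 0.17, adjusted p = 0.029). Rrm2, a ribonucleotide reductase gene, was at 1.45, 1.20 and 0.839 FPKM at ZT0 and 3.32, 2.83 and 4.12 FPKM at ZT12 (1.03 ± 0.18, adjusted p = 0.045). Both were lowly expressed, and their groups did not overlap, as for every called gene.

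**Figure D4:**
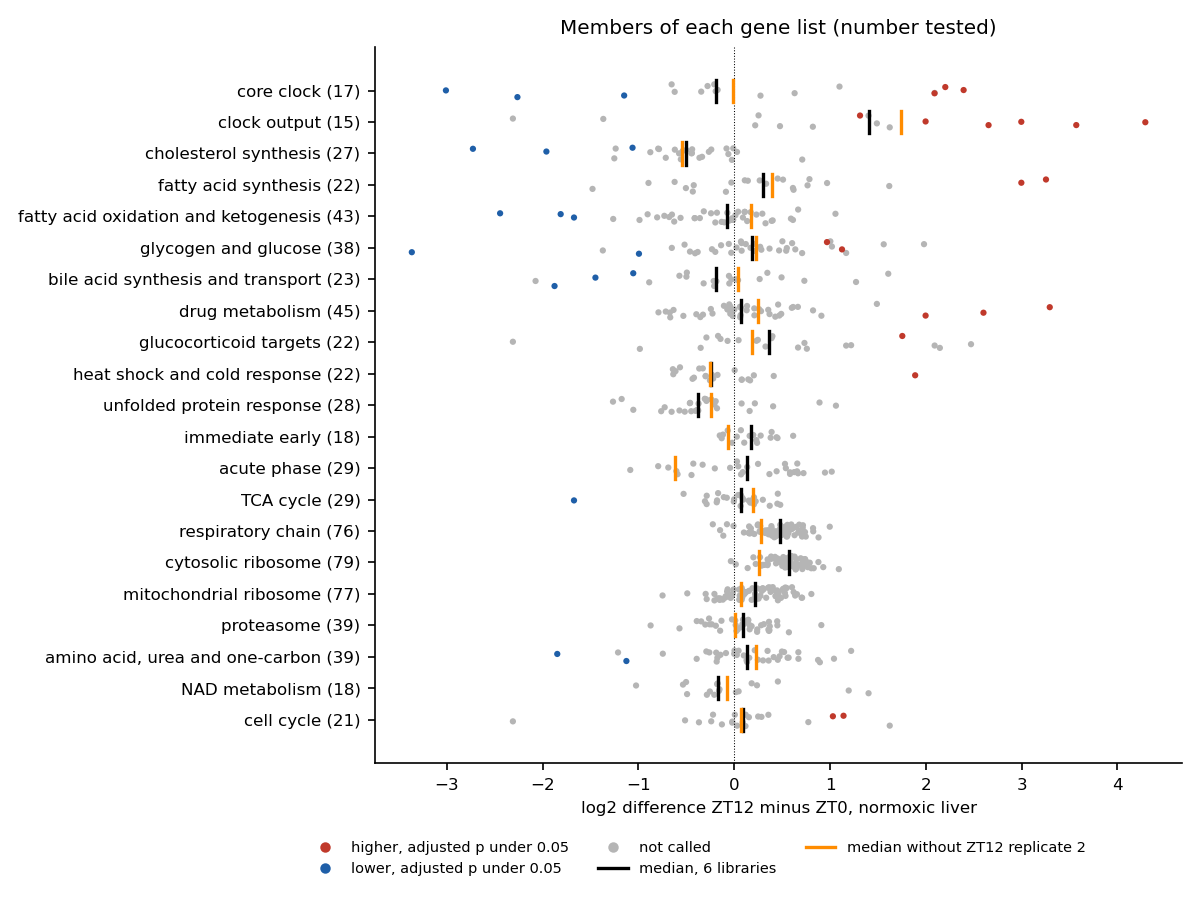
Each point is the log2(FPKM + 1) difference between ZT12 and ZT0 of 1 member of a gene list in normoxic liver, red where called higher and blue where called lower. Black bars give the median with 6 libraries and orange bars that without ZT12 replicate 2. The acute-phase median moves from 0.14 to -0.62 between them, whereas that of the clock output genes stays above 1.

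Transcripts of the translation and respiration machinery were higher at ZT12 in most members without any passing the test. Of 79 cytosolic ribosomal protein genes 68 had all 3 ZT12 values above the 3 at ZT0 and none below, at a median of 0.57. Of 76 respiratory chain genes 54 did, and none were below, at a median of 0.48. Over all tested genes 8.55% were above and 22.2% below, with a median of -0.09. Both medians were smaller without ZT12 replicate 2. Rpl28 was at 588, 553 and 611 FPKM at ZT0 and 751, 1391 and 653 FPKM at ZT12 and Uqcrq at 645, 586 and 726 FPKM at ZT0 and 853, 1719 and 684 FPKM at ZT12, each highest in that library. Without it the medians were 0.26 and 0.28, with 2 and 3 genes called higher, and they were 0.09 and 0.11 in IH. Both medians were above 0 under each scaling tried. For 77 mitochondrial ribosomal genes 20 were above and 5 below (median 0.22), and for 39 proteasome genes 2 and 7 (median 0.09). In IH 2 of the 79 cytosolic ribosomal and 8 of the 76 respiratory chain genes were above without overlap and 1 of each was below, against 9.8% and 20.1% of all tested genes. In none of these 4 lists did a gene pass with 6 libraries in normoxia. Without replicate 2, 1 mitochondrial ribosomal gene rose and 2 fell, and 1 proteasome gene fell. At an unadjusted P below 0.05 in limma, 13 cytosolic ribosomal, 22 respiratory chain, 7 mitochondrial ribosomal and 1 proteasome genes were higher and 0, 0, 2 and 4 were lower, against 4.89% higher and 13.4% lower of all tested genes.

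The identity of the tissue was as labelled. Alb, the albumin gene, was at 29694, 25532 and 24838 FPKM at ZT0 and 36458, 32189.9 and 36497 FPKM at ZT12, and all 10 hepatocyte markers were tested, with none called with 6 libraries and 1 higher without ZT12 replicate 2. Their summed level was 53622, 47477 and 48991 FPKM at ZT0 and 61624, 78796 and 60805 FPKM at ZT12. Hal, histidine ammonia-lyase, was the 1 of 8 periportal genes to pass, at 121, 107 and 143 FPKM at ZT0 and 53.0, 45.2 and 39.9 FPKM at ZT12 (-1.40 ± 0.17, adjusted p = 0.019), and none of 9 pericentral genes passed with 6 libraries. Without replicate 2, 2 periportal genes rose and 1 fell, and 1 pericentral gene rose. Cyp2e1, the most abundant pericentral gene, was at 2446, 2018 and 2771 FPKM at ZT0 and 4729.8, 2523 and 4571 FPKM at ZT12 and was that gene (0.96, adjusted p = 0.036).

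Markers of other cells were not called with 6 libraries, and several were high in ZT12 replicate 2. The 10 Kupffer cell markers summed to 87.6, 97.4 and 108 FPKM at ZT0 and to 89.8, 441 and 98.0 FPKM at ZT12, and the 5 of 7 neutrophil markers tested to 0.618, 1.45 and 2.46 FPKM and 1.57, 226 and 1.06 FPKM. No tested marker of either list was at 0 in all 6 libraries. S100a8, a calprotectin gene of neutrophils, was at 0.283, 0.800 and 1.03 FPKM at ZT0 and 0.0623, 106 and 0.261 FPKM at ZT12. Of the 29 acute-phase genes none passed with or without that library, and 4 had lower values at an unadjusted P below 0.05 with 6 libraries, a share close to the 13.4% of all tested genes. They summed to 14286, 18319 and 27936 FPKM at ZT0 and to 14034, 89539 and 13327 FPKM at ZT12. Among the ZT0 libraries replicate 3 had the highest sum. Haptoglobin (Hp) was highest in the same 2 libraries, at 1838, 1819.7 and 3408 FPKM at ZT0 and 1409, 17790.4 and 1528 FPKM at ZT12. Sums of endothelial markers were 87.7, 75.6 and 74.9 FPKM and 81.5, 69.8 and 71.5 FPKM, and those of stellate cell markers 92.5, 66.2 and 55.4 FPKM and 63.2, 45.5 and 58.6 FPKM. Adipocyte, lymphocyte, cholangiocyte, red blood cell and pancreas markers gave no call with 6 libraries, and without replicate 2, 1 adipocyte marker was higher and 1 cholangiocyte marker lower. The part of these transcripts in the comparison was not tested. The 227 calls were all also made without ZT12 replicate 2. This is no test of that part, because 1215 genes were called without that library.

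Genes far from the other ZT12 libraries in replicate 2 included, beside Saa1, its neighbour Saa2 (14.0, 11764 and 17.9 FPKM at ZT12), Mt2, a metallothionein gene (3.52, 1555 and 2.49 FPKM), Lcn2, lipocalin 2 (1.78, 1111 and 3.24 FPKM) and Orm2, orosomucoid 2 (13.8, 3887 and 10.2 FPKM). Saa1 and Saa2 are close paralogs, and their reads may have been split. In the other direction, Cyp4a14, a PPARα target, was at 100.2, 0.553 and 48.4 FPKM. Gm5424 was at 891, 4.17e-05 and 909.8 FPKM and Gm12669 at 28.7, 1.46e-04 and 28.0 FPKM, both of them predicted genes. Snora64 and Mir8112 were listed at 0 in that library, and both are short RNAs that a library of polyadenylated RNA measures poorly. In all, 486 genes lay at least 1 log2 unit above the mean of the other 2 ZT12 libraries in replicate 2 and 933 at least 1 unit below. Their part in the comparison of ZT12 with ZT0 was not tested beyond leaving the library out.

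The mice under IH, which share no library with those in normoxia, gave the same direction for nearly all called genes. Of 13215 genes, 158 rose (1.2%) and 462 fell (3.5%) at ZT12 in IH, and 1295 (9.8%) lay above and 2662 (20.1%) below without overlap. Of the 47 genes that rose in normoxia, 46 had a positive difference in IH, 40 had groups without overlap and 26 were called. Of the 180 that fell, 177 had a negative difference, 153 had groups without overlap and 94 were called. Arntl differed by -2.35 in IH (adjusted p = 0.0082), Dbp by 3.98 (adjusted p = 0.01), Elovl3 by -4.32 (adjusted p = 0.015) and Cyp2a5 by 3.42 (adjusted p = 0.013). In IH 15 of the 27 cholesterol synthesis genes fell and none rose, and 12 of the 15 clock output genes rose and 2 fell. Of the 38 glycogen and glucose genes 4 rose and 1 fell there, of the 23 bile acid genes none rose and 3 fell, and of the 43 fatty acid oxidation genes 2 rose and 4 fell. The numbers of calls in normoxia and IH were not tested against each other.

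Whether a difference between ZT12 and ZT0 depended on the condition was tested as an interaction over the 12 libraries. No gene passed in limma (smallest adjusted p = 0.820), and 611 (4.62%) had an unadjusted P below 0.05. Among them were 56 of the 227 called genes, which were picked by the normoxia difference that the interaction also contains. Their share therefore cannot be set against that of all tested genes. Hist1h1c had 1 of the smallest P values. It differed by -2.19 in normoxia and by -0.44 in IH, where it was at 47.2, 31.5 and 19.1 FPKM at ZT0 and 17.3, 30.5 and 20.6 FPKM at ZT12 (unadjusted P = 0.0011). For Rbm3 the differences were 1.89 and 0.89 (unadjusted P = 0.0053), for Ppp1r3c -3.37 and -2.09 (unadjusted P = 0.016), and for Nr1d1 2.20 and 0.85 (unadjusted P = 0.029). None of these holds after adjustment. The other genes with the smallest P, Chrna4, Gm15421, Dok1 and Slc44a3, had normoxia differences from 0.19 to 0.51 and IH differences from -2.30 to -0.11.

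**Figure D5:**
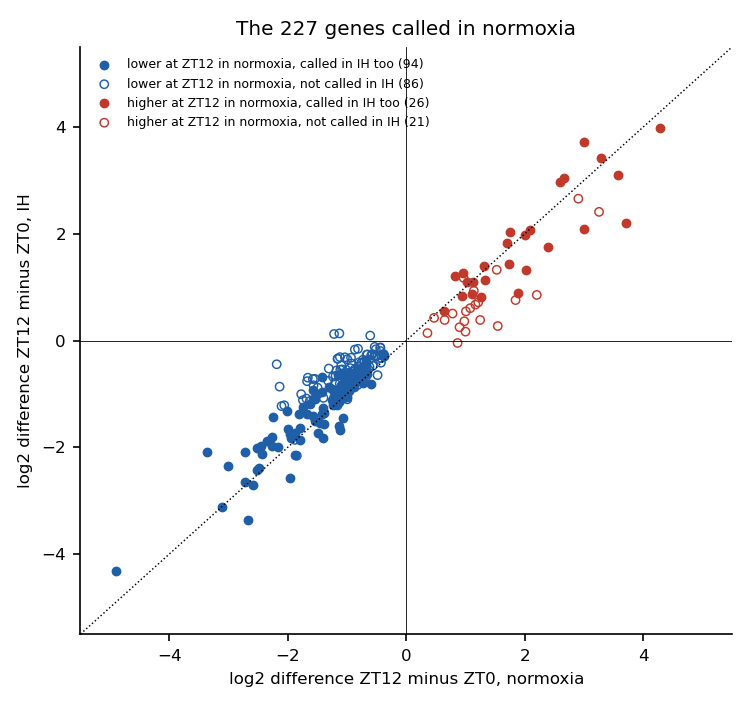
Each point is 1 of the 227 genes called in normoxia, with the log2(FPKM + 1) difference between ZT12 and ZT0 in normoxia on the x axis and in IH on the y axis, filled where the gene was also called in IH. Of the 47 higher genes 46 lie above 0 on the y axis, and of the 180 lower genes 177 lie below it.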

How the data were processed

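Livers of 6 normoxic mice, 3 killed at ZT0 and 3 at ZT12, were the data of this comparison, with 6 mice of the same times under IH. The authors sequenced polyadenylated RNA in a stranded, paired-end protocol, aligned the reads to mm10 with TopHat2 2.1.1 (versions per the submitters' processing notes) through Bowtie2, and ran Cufflinks 2.2.1 on each replicate, which gave the FPKM values they deposited. The annotation and any scaling between libraries are not given in the sources used here. FPKM is relative, so a library with a few very abundant transcripts shifts the values of the rest, and depth is unknown, which leaves the counting error of low genes unknown.

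Time and replicate of each column came from the sample labels, and the condition of each of the 2 tables from the table's name. No column was left unused. Left out were 280 symbols that occupy several rows. The log2(FPKM + 1) values were fitted by limma 3.58.1 under R 4.3.3 (moderated two-sided test, intensity trend). P-values were Benjamini-Hochberg adjusted over 13215 genes, those averaging 0.1 FPKM or more across 36 libraries. The study's regularized test was not used. Each comparison of ZT12 with ZT0 used its own 6 libraries, and the interaction all 12. The P-values measure the spread between 3 mice per group. The fit was also run on simulated data whose noise was alike in every library, so these did not model a library like ZT12 replicate 2. Coordinates are those of GENCODE vM21 (GRCm38), in which 23318 of 24346 symbols were found by symbol, 665 by a synonym and 363 not at all. Promoters came from RefSeq (GRCm38.p6).

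Members, lists and tests were chosen with earlier results of these data known. The text names each tested clock gene, the 10 called genes of smallest P and the 10 of largest difference in each direction, up to 6 called members of each other list in each direction or its 2 most abundant members, the 5 genes farthest above and below in ZT12 replicate 2, and the 5 of smallest P in the interaction, as well as genes said to be chosen after their values were seen. A few genes that this rule would name are not reported here. Alternatives were another pseudocount, filters, scalings, the replicate number as a block, other libraries to set the spread, sample weights, an unadjusted P of 0.01, removal of trends with length and GC content, repeated symbols summed, and leaving out each library. The 17-library fit and the list counts without ZT12 replicate 2 were added after the data were seen. Plots were made in Python 3.11.15 (matplotlib 3.10.9).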

Additional observations from a re-analysis of the deposited data

Results flagged for a closer look

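Gm15421, a predicted gene of low level, moved in opposite directions in the 2 conditions, with each ZT12 library above each ZT0 library in normoxia and below in IH. In normoxia it was at 0.344, 0.445 and 0.328 FPKM at ZT0 and 0.733, 0.951 and 0.653 FPKM at ZT12, and in IH at 0.524, 0.787 and 0.839 FPKM at ZT0 and 0.429, 0.363 and 0.420 FPKM at ZT12. The difference between ZT12 and ZT0 was 0.657 larger in normoxia on the log2 scale, which as an interaction had an unadjusted P of 2.0e-04 and an adjusted p of 0.820 in limma. Of the 13215 tested genes 38 separated in opposite directions in this way, and 0 of them passed the interaction test.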

How the results depend on the processing

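With 6 normoxia libraries 47 genes rose and 180 fell, and no setting reversed the direction of any of the 227. Counts that moved by more than 1.5 times were 30 higher without a filter, 19 higher after rescaling to a common sum, 88 by the median of ratios, 93 by quantile normalization and 138 with the trends of length and GC content removed. Higher and lower genes were 784 and 1946 when all time points set the spread, 1064 and 2093 with sample weights, and 224 and 686 at an unadjusted P of 0.01. Leaving out 1 library gave 4 to 486 higher and 29 to 729 lower. The highest of these counts came without ZT12 replicate 2. With any of the other 5 libraries left out they were 4 to 10 higher and 29 to 42 lower, so the number of calls depends on each library. In all 227 called genes the ZT12 and ZT0 values did not overlap, so leaving out 1 library could not reverse a direction. Without ZT12 replicate 2 and with 17 libraries to set the spread there were 1235 higher and 1657 lower. With a replicate block 12 rose and 34 fell, and 45 of the 227 calls were kept. Deviations of same-numbered mice correlated at 0.13, -0.08 and -0.30, and those of differently numbered mice at -0.12 to 0.21. With 3 libraries per group these values cannot show whether the replicate number marks a shared batch. In IH, where 158 rose and 462 fell, the counts were 89 and 242 without a filter, 95 and 194 with the replicate block, 939 and 1963 when all time points set the spread, and 368 and 1004 at the unadjusted P. There 239 rose by the median of ratios and 251 with the trends removed, and leaving out 1 library gave 8 to 101 higher and 18 to 253 lower. For the interaction 4 genes passed when all time points set the spread, 1 with sample weights and 92 at the unadjusted P, and 0 to 1 with a library left out. A count of 1 came without normoxia ZT0 replicate 1 and also without normoxia ZT12 replicate 2, and whether it was 1 gene in both was not examined. The cause of these shifts was not tested. Unknown depth limits what can be said of genes of low FPKM.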

Other observations

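Some genes outside the lists are described here that were chosen after their values were seen, with no test of any group. Of 43 tested histone genes 7 fell and 0 rose (15 and 0 without ZT12 replicate 2), where 1.36% of all tested genes fell (5.52% without that library). Over all tested genes 3.5% fell and 1.2% rose in IH, and 0 of the 43 histone genes passed there in either direction. Their median difference was -0.32 in normoxia and -0.13 in IH. Hist1h2bg was at 39.5, 31.4 and 38.1 FPKM at ZT0 and 15.0, 14.9 and 18.6 FPKM at ZT12 (-1.12 ± 0.16, adjusted p = 0.026) and Hist1h1d at 1.09, 0.960 and 0.744 FPKM at ZT0 and 0.105, 0.0828 and 0.0962 FPKM at ZT12 (-0.81 ± 0.08, adjusted p = 0.01). Replication-dependent histone transcripts end without a poly(A) tail, so libraries of polyadenylated RNA hold few of them, and histone genes of 1 class share sequence. Of 11 alpha and beta tubulin genes 3 fell (Tuba4a, Tubb2a and Tubb2b) and 0 rose, with 6 lower without replicate 2.

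Of single genes that encode tight junction proteins, Tjp3 was at 23.3, 22.7 and 20.8 FPKM at ZT0 and 2.79, 5.35 and 3.68 FPKM at ZT12 (-2.27 ± 0.21, adjusted p = 0.0074), and Cgn, which encodes cingulin, differed by -1.30 ± 0.21 (adjusted p = 0.038). In IH Tjp3 and Cgn differed by -1.81 and -0.86. Of the glycine cleavage genes, Gldc was at 67.9, 55.5 and 56.3 FPKM at ZT0 and 21.5, 15.8 and 25.2 FPKM at ZT12, a difference of -1.50 ± 0.20. Amt was at 38.4, 25.5 and 31.7 FPKM at ZT0 and 9.95, 4.16 and 9.63 FPKM at ZT12, a difference of -1.94 ± 0.32. The genes of a pair of hormone receptors were lower, Avpr1a, of vasopressin, at 25.5, 17.2 and 21.1 FPKM at ZT0 and 3.46, 2.88 and 3.65 FPKM at ZT12 (-2.35 ± 0.18, adjusted p = 0.0035), and Mtnr1a, of melatonin, at 0.902, 0.707 and 0.891 FPKM at ZT0 and 0.0996, 0.127 and 0.217 FPKM at ZT12 (-0.68 ± 0.08, adjusted p = 0.015). Higher at ZT12 were Gamt, of creatine synthesis, at 141, 139 and 161 FPKM at ZT0 and 307, 339.5 and 289 FPKM at ZT12 (1.08 ± 0.15, adjusted p = 0.023), and Cebpb, which encodes the factor C/EBPβ, at 16.8, 20.2 and 18.6 FPKM at ZT0 and 43.1, 82.3 and 49.0 FPKM at ZT12 (1.55 ± 0.25, adjusted p = 0.039). For Cebpb ZT12 replicate 2 was the highest library, and in IH its difference was 0.27 (adjusted p = 0.56).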
